A study of Rattus norvegicus with 10 samples.

Results

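The genes described here are those of fatty acid and triglyceride synthesis in the rat mammary gland, read across 3 diets. A list of 34 genes was matched by gene symbol to the array, and 32 of them had a probe set annotated to that symbol alone, out of 10411 such genes on the array. Gpat3 and Mogat2 had none. Where a gene had several probe sets, the one with the highest mean log2 signal over all arrays was used. A probe set was tested when it lay outside the lowest 40% of mean log2 signal, which left 25 of the 32 genes, with geometric mean signals of at least 162. The other 7, Acacb, Scd, Elovl6, Gpam, Agpat2, Mlxipl and Pnpla3, were dimmer than that and are given by level only.

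All rats were female Sprague-Dawley animals at postnatal day 50 on purified diets, and the diets carry the labels CAS (3 arrays), SPI (4 arrays) and GEN (3 arrays). In studies of this design CAS denotes casein and SPI soy protein isolate as the protein source, and the series title names genistein, a soy isoflavone, for GEN; the labels give no dose and no feeding period. Each array, an Affymetrix RAE230 chip, read RNA pooled from the fourth mammary gland of 2 animals. The labels state that several labelled targets were made from each pool and do not say which arrays came from separate pools, so the p-values measure the spread between these arrays, which may in part be technical. The labels call the material mammary epithelial cells, whereas the protocol describes whole-gland RNA, and a sentence of the design text names the colon. Milk protein genes and some adipocyte genes were abundant. Csn2, the beta-casein gene, reached signals of 2245 to 18876 across the arrays, and Fabp4, the fatty acid carrier of fat cells, reached 10206 to 16003. Lep, Plin1 and Pck1, other fat cell markers, lay below the brightness filter.

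Fatty acids are built in the cytosol from citrate exported by mitochondria: citrate is cleaved to acetyl-CoA, carboxylated to malonyl-CoA and condensed by fatty acid synthase with reducing power from NADPH. Desaturases and elongases then modify the chains, and acyltransferases join them to a glycerol backbone to make triglyceride. In the mammary gland the secretory epithelium uses this pathway to make milk fat, while the surrounding fat pad uses many of the same enzymes for storage. In whole-gland RNA, fewer cells of a type and less RNA per cell cannot be told apart.

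The question of the design is whether gene expression in the gland differs between diets, and it gives 3 comparisons, of which each pair shares the arrays of 1 diet. No member passed an adjusted p of 0.05 (limma, Benjamini-Hochberg over 9520 probe sets) in any of them. Neither did any other probe set: the share called was 0% when SPI was set against CAS (smallest adjusted p of any probe set 0.170), 0% when GEN was set against CAS (0.0642) and 0% when SPI was set against GEN (0.132). The levels and unadjusted values that follow are therefore descriptions of these arrays, and an unadjusted p is printed to order them. Differences are in log2 signal, with the standard error (SE) of the shared fit.

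Between GEN and CAS, 3 members had an unadjusted p under 0.05, all higher on GEN: Fads2, the desaturase that opens polyunsaturated fatty acid synthesis, Thrsp, a thyroid hormone-responsive protein that promotes lipogenesis, and Elovl5, an elongase of polyunsaturated chains. Those 3 of 25 make up 12%, beside 5.89% of all tested probe sets. Signals of the 2 diets did not overlap for 5 members (Fads2, Thrsp, Elovl5 and Dgat2 higher on GEN, Pgd lower), beside 11.1% of all probe sets. The difference was above 0 for 16 of 25 members, or 64%, beside 47.9% of all probe sets, and the members' median was 0.09, beside -0.01 over all probe sets. The smallest adjusted p of a member was 0.577, for Fads2.

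Between SPI and CAS, 2 members had an unadjusted p under 0.05, Fads2 with higher and Gpd1 with lower signals on SPI, which is 8% beside 4.82% of all tested probe sets. The same 2 genes were the members whose signals did not overlap, beside 4.6% of all probe sets. Of the 25 members 13 had a difference above 0, or 52% beside 47.7%, and their median was 0.02. Gpd1 makes the glycerol phosphate backbone of triglyceride from a glycolytic intermediate. The smallest adjusted p of a member was 0.949.

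Between SPI and GEN, 4 members had an unadjusted p under 0.05, which is 16% beside 7.95% of all probe sets. Fasn, Fads2 and Gpd1 had lower and Mid1ip1 higher signals on SPI. Only Gpd1 did not overlap among the 25 members' brightest probe sets, beside 8.5% of all probe sets. The difference was above 0 for 10 of 25, or 40% beside 49.2%, and the median was -0.12, beside -0.00 over all probe sets. The smallest adjusted p of a member was 0.563. The plot of all differences shows how wide the intervals are against the differences.

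**Figure D1:**
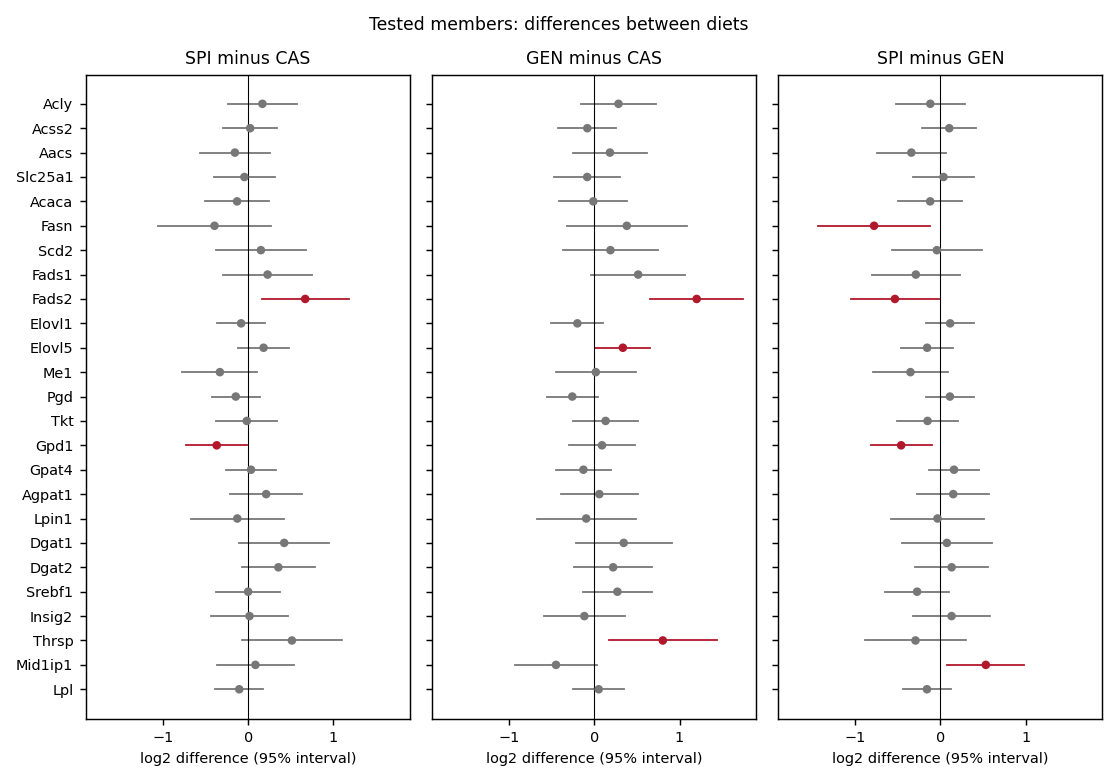
Differences in log2 signal between diets for the 25 tested members, 1 panel per comparison, ordered by role; points are the fitted differences and bars their 95% intervals, with red for an unadjusted p under 0.05. Fads2 on GEN against CAS lies at 1.20, and most other intervals cross 0.

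Among the genes of de novo synthesis, 6 of 7 were tested. Fasn, the synthase that assembles palmitate, had signals of 2005, 1232 and 1747 on CAS, 1599, 1341, 972 and 1127 on SPI, and 2511, 1153 and 3297 on GEN. GEN 1 and GEN 5 stood above every other array and GEN 3 lay among those of SPI, so GEN overlapped with both diets. The fitted difference was -0.78 ± 0.30 (SE) for SPI against GEN, a fold of 0.584 (limma, unadjusted p = 0.0244, adjusted p = 0.582). It was -0.46 without GEN 5 (unadjusted p = 0.159) and -1.22 without GEN 3, and its unadjusted p was over 0.05 under 5 of 18 alternatives. Against CAS, Fasn differed by -0.39 ± 0.30 on SPI and by 0.38 ± 0.33 on GEN, with intervals that included 0.

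Acaca, the acetyl-CoA carboxylase of the committed step, had signals of 635, 721 and 829.7 on CAS, 869, 606, 582 and 626 on SPI, and 687, 652 and 829 on GEN. All diets overlapped. The 95% interval of its difference ran from -0.50 to 0.24 between SPI and CAS, from -0.41 to 0.39 between GEN and CAS, and from -0.49 to 0.25 between SPI and GEN, so each interval included 0. The direction on GEN against CAS, at -0.01 ± 0.18, turned under quantile normalization and when 1 of several arrays was left out.

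The enzymes that supply acetyl-CoA for this step and related precursors had no unadjusted p under 0.05. Acly, which cleaves citrate, had signals from 1337 to 2351 over the 10 arrays and differences of 0.17 ± 0.19 (SPI against CAS), 0.28 ± 0.20 (GEN against CAS) and -0.12 ± 0.19 (SPI against GEN). Slc25a1, the mitochondrial citrate carrier, had signals from 357 to 543, and Acss2, which activates acetate, from 679.9 to 929. Their differences lay between -0.08 and 0.10 in all comparisons. Aacs, which activates acetoacetate, had signals from 213 to 379 and a difference of -0.34 ± 0.19 for SPI against GEN (unadjusted p = 0.0949). Acacb, the carboxylase at mitochondria, was listed at 2.7 to 44.8 and was not tested.

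In the group of desaturases and elongases, 5 of 7 genes were tested, and Fads2 had the largest difference of all tested members. Its signals were 160.4, 143 and 125 on CAS, 273, 208, 163 and 280 on SPI, and 337, 254 and 405 on GEN. The CAS arrays were the lowest of the 10, without overlap with SPI or GEN, although SPI 4 and CAS 1 were nearly equal, and SPI overlapped with GEN. The mean signal on CAS was 143 ± 17.9 (SD, n = 3), that on SPI 231 ± 55.6 (SD, n = 4), and that on GEN 332 ± 75.5 (SD, n = 3).

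For GEN against CAS the Fads2 difference was 1.20 ± 0.25 (SE), a fold of 2.30, with a 95% interval from 0.65 to 1.75 (limma, unadjusted p = 0.00039, adjusted p = 0.577). All 3 GEN arrays lay above all 3 CAS arrays, and the difference ranged from 1.05 to 1.38 over the 18 alternatives, each with an unadjusted p under 0.05. For SPI against CAS it was 0.67 ± 0.24, a fold of 1.59 (unadjusted p = 0.0144, adjusted p = 0.949), with an unadjusted p over 0.05 under 1 of 18 alternatives. For SPI against GEN it was -0.53 ± 0.24, with an interval from -1.04 to -0.02 (unadjusted p = 0.0426, adjusted p = 0.609), and its unadjusted p was over 0.05 under 10 of 18 alternatives, over which it ranged from -0.71 to -0.36. Fads2 was among the dimmer tested members, and a single probe set read it. Every CAS signal lay below the brightness cut, so Fads2 passed the filter only through its SPI and GEN arrays. Its mean log2 signals were 7.15 on CAS, 7.82 on SPI and 8.35 on GEN. Its place among the tested members thus depended on the diets compared. With no filter the difference for GEN against CAS was again 1.20 (limma, unadjusted p = 0.00067, adjusted p = 0.878).

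The bases just upstream of Fads2 are shown because this gene had the largest difference between diets among the tested members. In the RefSeq table of build GRCr8 they lie at chr1:216172034-216172283 on the minus strand, the 250 bases before the annotated start, written 5′ to 3′ along the gene. Capitals mark GGGCGG, the box bound by Sp-family factors, which begins 99 bases before the start.
Fads2: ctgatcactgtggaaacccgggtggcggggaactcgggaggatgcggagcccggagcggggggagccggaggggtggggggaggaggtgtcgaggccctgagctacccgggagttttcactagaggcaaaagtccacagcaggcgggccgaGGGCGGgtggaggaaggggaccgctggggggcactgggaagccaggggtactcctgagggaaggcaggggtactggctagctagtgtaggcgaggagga
No CCAAT, no CACGTG and no copy of the sterol regulatory element of the LDL receptor promoter was present in those letters. That says only what the letters in the window are.

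Fads1, which carries out the later desaturation of the same polyunsaturated chains, neighbours Fads2 on the chromosome, with Fads3 on the other side. Fads1 signals were 611 to 906 on CAS, 687 to 1161 on SPI and 807 to 1446 on GEN, which overlapped. Its difference was 0.51 ± 0.26 for GEN against CAS (limma, unadjusted p = 0.0658), 0.23 ± 0.24 for SPI against CAS and -0.29 ± 0.24 for SPI against GEN. Fads3, which is no member, differed by -0.24 ± 0.22 for GEN against CAS.

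Elovl5 was among the brightest members, with signals of 2636, 3719 and 3212 on CAS, 4097, 3591, 3165 and 3525 on SPI, and 3961, 3734 and 4278 on GEN. The lowest GEN array lay just above the highest CAS array, and SPI overlapped with both. The GEN against CAS difference was 0.34 ± 0.15, a fold of 1.26 (limma, unadjusted p = 0.0422, adjusted p = 0.825), and its unadjusted p was over 0.05 under 9 of 18 alternatives. It ranged from 0.21 without CAS 1 to 0.45 without CAS 2.

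The remaining desaturases and elongases gave smaller or unmeasured differences. Scd2, a stearoyl-CoA desaturase that makes monounsaturated chains, had signals from 535 to 1109 and differences of 0.15, 0.19 and -0.04 in the order SPI against CAS, GEN against CAS and SPI against GEN. Elovl1, an elongase of saturated very long chains, differed by -0.08, -0.20 and 0.12 in the same order, each with an SE of 0.13 or 0.14. Scd, the related desaturase, was dim, with signals of 42.2, 114 and 107 on CAS, 108, 119, 21.1 and 57.0 on SPI, and 120.1, 102 and 160.3 on GEN, and overlapped between all diets. Elovl6, which extends palmitate, was listed at 61.2 to 172.

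The plot of signals by array shows the 6 members with an unadjusted p under 0.05 in any comparison.

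**Figure D2:**
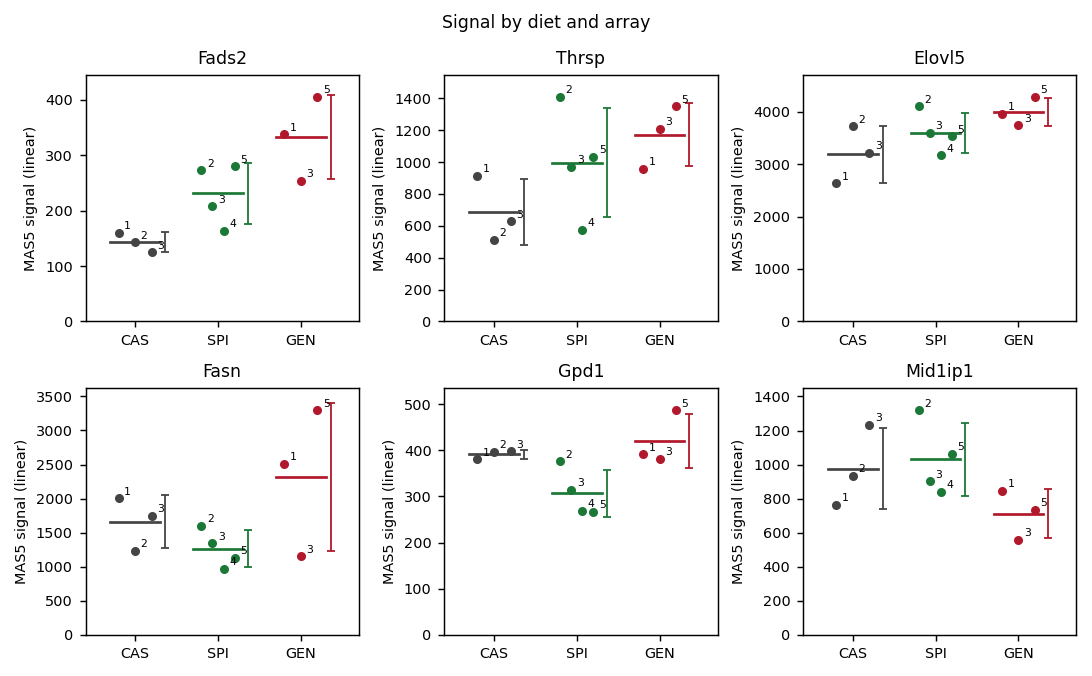
Linear MAS5 signal of 6 members on each array, by diet; points are arrays labelled with their replicate number, horizontal lines are diet means and bars 1 SD (n = 3, 4 and 3). Fads2 on the 3 GEN arrays lies between 254 and 405, above the CAS arrays at 125 to 160.4, whereas Fasn on GEN spans 1153 to 3297.

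All 3 genes grouped under NADPH supply, of which Tkt makes no NADPH itself, were tested, and none had an unadjusted p under 0.05. Pgd, an oxidative enzyme of the pentose phosphate pathway, had signals of 1250.4, 1070.5 and 1184 on CAS, 1071, 1004, 983.5 and 1169 on SPI, and 912, 958 and 1062 on GEN. Its GEN arrays all lay below its CAS arrays, by a narrow margin, with a difference of -0.26 ± 0.14 (limma, unadjusted p = 0.0844, adjusted p = 0.825). Me1, the cytosolic malic enzyme, had signals from 337 to 726 and differences of -0.33 ± 0.20 (SPI against CAS), 0.02 ± 0.22 (GEN against CAS) and -0.35 ± 0.20 (SPI against GEN). Tkt, transketolase of the same pentose pathway, had signals from 1092 to 1711 and differences between -0.15 and 0.13.

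Glycerolipid assembly was read by 6 tested genes. Gpd1 signals were 381, 397 and 398 on CAS, 376, 315, 269 and 266 on SPI, and 391, 381 and 487 on GEN. Every SPI array lay below every CAS and GEN array, though SPI 2 came within a few units of the nearest of them. The CAS mean was 392 ± 9.7 (SD, n = 3), the SPI mean 306 ± 51.6 (SD, n = 4) and the GEN mean 420 ± 58.2 (SD, n = 3). The difference was -0.37 ± 0.17 for SPI against CAS (limma, unadjusted p = 0.0449, adjusted p = 0.987) and -0.46 ± 0.17 for SPI against GEN (unadjusted p = 0.0161, adjusted p = 0.563), and 0.09 ± 0.18 for GEN against CAS. The unadjusted p for SPI against CAS was over 0.05 under 13 of 18 alternatives.

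Dgat1 and Dgat2, unrelated enzymes that both add the last acyl chain of triglyceride, had higher mean signals on SPI and GEN than on CAS, with wide intervals. Dgat1 signals were 1614, 2425 and 1051 on CAS, 1635, 2035, 2734 and 2336 on SPI, and 2259, 1923 and 1942 on GEN. All diets overlapped, and the CAS arrays spanned nearly the whole range. Its difference was 0.42 ± 0.24 for SPI against CAS (limma, unadjusted p = 0.106) and 0.35 ± 0.26 for GEN against CAS (unadjusted p = 0.207). Dgat2 signals were 373, 329 and 383 on CAS, 329.9, 443, 653 and 474 on SPI, and 415, 416 and 431 on GEN. The GEN arrays lay together above the CAS arrays, while the SPI arrays spread on both sides. Its difference was 0.22 ± 0.21 for GEN against CAS (limma, unadjusted p = 0.314) and 0.35 ± 0.20 for SPI against CAS (unadjusted p = 0.0965). The fit's shared spread takes in the SPI arrays, of which SPI 4 was the highest.

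The other assembly genes overlapped between all diets. Gpat4, an acyltransferase that attaches the first chain, had signals from 891 to 1196, and Agpat1, which attaches the second, from 166 to 258. Lpin1, a phosphatase that makes diacylglycerol, had signals from 157 to 293. Their differences lay between -0.13 and 0.21 in the 3 comparisons. Gpam, the mitochondrial counterpart of Gpat4, was listed at 47.4 to 103 and Agpat2 at 57.3 to 144, both below the filter.

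Of the regulators, 4 of 5 were tested. Thrsp signals were 913, 512 and 627 on CAS, 1408, 969, 573 and 1034 on SPI, and 958, 1208 and 1349 on GEN. The GEN arrays all lay above the CAS arrays, and the SPI arrays ran from among the lowest to the highest of the 10. The CAS mean was 684 ± 207 (SD, n = 3), the SPI mean 996 ± 342 (SD, n = 4) and the GEN mean 1172 ± 198 (SD, n = 3). The difference was 0.80 ± 0.29 for GEN against CAS, a fold of 1.75 (limma, unadjusted p = 0.0165, adjusted p = 0.825), 0.51 ± 0.27 for SPI against CAS (unadjusted p = 0.083) and -0.29 ± 0.27 for SPI against GEN. It was 0.62 without CAS 2 (unadjusted p = 0.0744) and 1.03 without CAS 1.

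The upstream bases of Thrsp are shown beside those of Fads2, since these genes had the largest differences between GEN and CAS. They lie at chr1:161138965-161139214 on the minus strand of GRCr8 (RefSeq), again the 250 bases before the start, 5′ to 3′. The capitals mark, in order, GGGCGG read on the opposite strand, which begins 230 bases before the start, and CCAAT read on the opposite strand, which begins 121 bases before it.
Thrsp: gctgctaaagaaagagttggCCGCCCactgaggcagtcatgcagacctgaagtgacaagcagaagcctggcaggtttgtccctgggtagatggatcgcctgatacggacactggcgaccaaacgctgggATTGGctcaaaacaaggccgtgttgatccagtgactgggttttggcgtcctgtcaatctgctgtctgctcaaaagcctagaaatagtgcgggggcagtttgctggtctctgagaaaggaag
The CCAAT letters are those bound by the trimeric factor NF-Y. The Fads2 window holds GGGCGG on the forward strand and no CCAAT, so the pair shares GGGCGG only, in different places.

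Over the members, 24 of the 32 had an entry in the promoter table. On either strand of the 250 bases before the start, CCAAT was present in 16 of 24 (66.7%), beside 34% of all 33469 promoters and 35% of the protein-coding ones. GGGCGG was present in 13 of 24 (54.2%), beside 30.5% and 38.9%. CACGTG, an E-box, was present in 1 (4.17%, Elovl5), beside 5.59% and 6.16%. The sterol regulatory element of the LDL receptor promoter, searched as an exact run of 10 letters, was in none, beside 0.105% of all promoters and 0.0275% of the protein-coding ones. None of these motifs contains another, and a match is a description of the sequence, with no test attached.

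Mid1ip1, a paralog of Thrsp that promotes polymerisation of Acaca, did not follow the order of Thrsp. Its signals were 764, 933 and 1233 on CAS, 1319, 902, 841 and 1064 on SPI, and 844, 558 and 734 on GEN. SPI 4, at 841, lay just below the highest GEN array, so these diets overlapped. The difference was 0.53 ± 0.21 for SPI against GEN (limma, unadjusted p = 0.0241, adjusted p = 0.582), -0.45 ± 0.22 for GEN against CAS (unadjusted p = 0.066) and 0.09 ± 0.21 for SPI against CAS.

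The transcription factor Srebf1, which activates many of the members, had signals from 584 to 888 on CAS, 683 to 854 on SPI and 791 to 1045 on GEN. It differed by -0.00 ± 0.17 between SPI and CAS, by 0.27 ± 0.19 between GEN and CAS (limma, unadjusted p = 0.17) and by -0.27 ± 0.17 between SPI and GEN. Insig2, which holds sterol regulatory proteins in the endoplasmic reticulum, had signals from 186 to 303 and differences of 0.02, -0.12 and 0.13. Mlxipl, the carbohydrate-responsive factor also called ChREBP, was listed at 53.6 to 165.3, below the filter.

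Lpl, the lipase that releases fatty acids from circulating lipoproteins for uptake, was the brightest member. Its signals were 4806, 4713 and 3874 on CAS, 4064, 4702, 3764 and 4058 on SPI, and 4602, 5173 and 4109 on GEN. All diets overlapped, and the 95% interval of the difference was -0.39 to 0.18 between SPI and CAS, -0.25 to 0.35 between GEN and CAS, and -0.44 to 0.12 between SPI and GEN. Pnpla3, a triglyceride lipase and acyltransferase, was listed at 8.9 to 80.6.

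Several members had a further tested probe set, and these give the same gene a separate reading on the same RNA. The second Fasn probe set had signals of 744, 560.1 and 574.5 on CAS, 567, 525, 410.2 and 418 on SPI, and 752, 579 and 944 on GEN. Here every SPI array lay below every GEN array, in contrast to the brighter probe set, and the difference was -0.65 ± 0.19 for SPI against GEN (limma, unadjusted p = 0.00538, adjusted p = 0.502). The second Thrsp probe set gave 1.14 ± 0.40 for GEN against CAS (unadjusted p = 0.0137, adjusted p = 0.825) and the third 1.13 ± 0.74. In all 3 Thrsp probe sets the GEN arrays lay above the CAS arrays. The third passed the brightness filter only through its GEN arrays, so it is no separate support for that order. Its mean log2 signals were 7.12 on CAS and 7.03 on SPI, below the cut, and 8.25 on GEN. It was also uneven on SPI, with signals of 298, 247, 20.7 and 192. The second Elovl5 probe set gave 0.93 ± 0.65 for GEN against CAS, with overlap. On SPI against CAS the second Elovl5 probe set gave -0.34 ± 0.60 and the third Thrsp probe set -0.08 ± 0.69, against 0.18 and 0.51 for the brighter ones. The second Me1 probe set gave -0.48 for SPI against GEN without overlap (unadjusted p = 0.0364), and the second Srebf1 probe set 0.33 for GEN against CAS. A second probe set of Acaca and one of Gpd1 were below the filter, as were 2 of Scd2 and 1 of Tkt. Their direction differed from that of the brighter probe set for Acaca on GEN against CAS, for Gpd1 on GEN against CAS and SPI against GEN, for Scd2 on SPI against CAS (the second) and SPI against GEN (the third), and for Tkt on SPI against CAS.

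**Figure D3:**
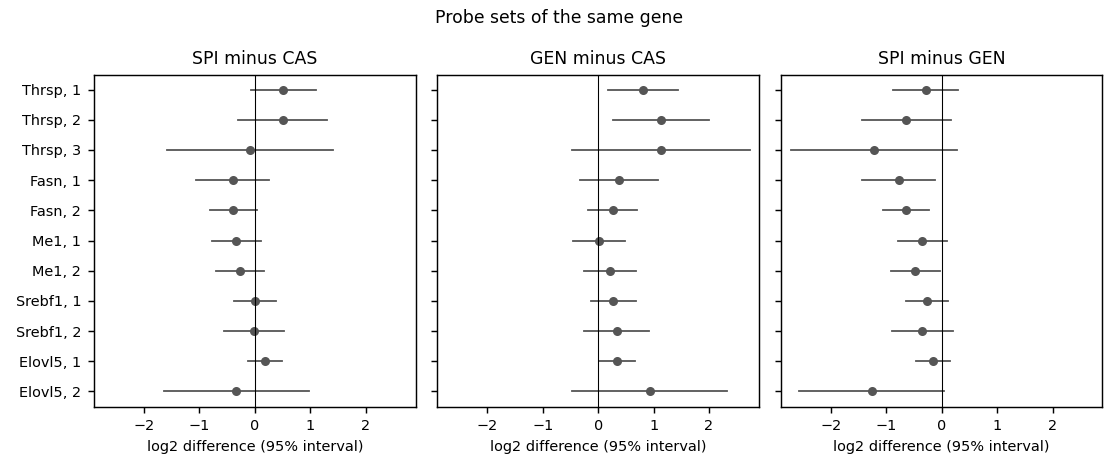
Differences in log2 signal for each tested probe set of 5 members that had more than 1, 1 panel per comparison; points are fitted differences, bars 95% intervals, and the number after the gene is the rank by mean signal. The 3 Thrsp probe sets give 0.80, 1.14 and 1.13 for GEN against CAS, and the 2 Fasn probe sets -0.78 and -0.65 for SPI against GEN. The third Thrsp probe set passed the brightness filter only through its GEN arrays.

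Across the arrays the members differed in which ones were high. The mean log2 signal of the 25 tested members ran from 9.41 on CAS 2 to 9.78 on GEN 5, with 9.41 to 9.57 on CAS, 9.44 to 9.65 on SPI and 9.50 to 9.78 on GEN, so the diets overlapped. On GEN 5, Fasn, Fads2, Fads1, Acly, Thrsp and Gpd1 were all above their own mean. On SPI 4, Fasn, Scd2, Me1 and Thrsp were below their mean while Dgat1, Dgat2 and Lpin1 were above it. On CAS 2, Fads2, Fads1, Srebf1 and Thrsp were below their mean.

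**Figure D4:**
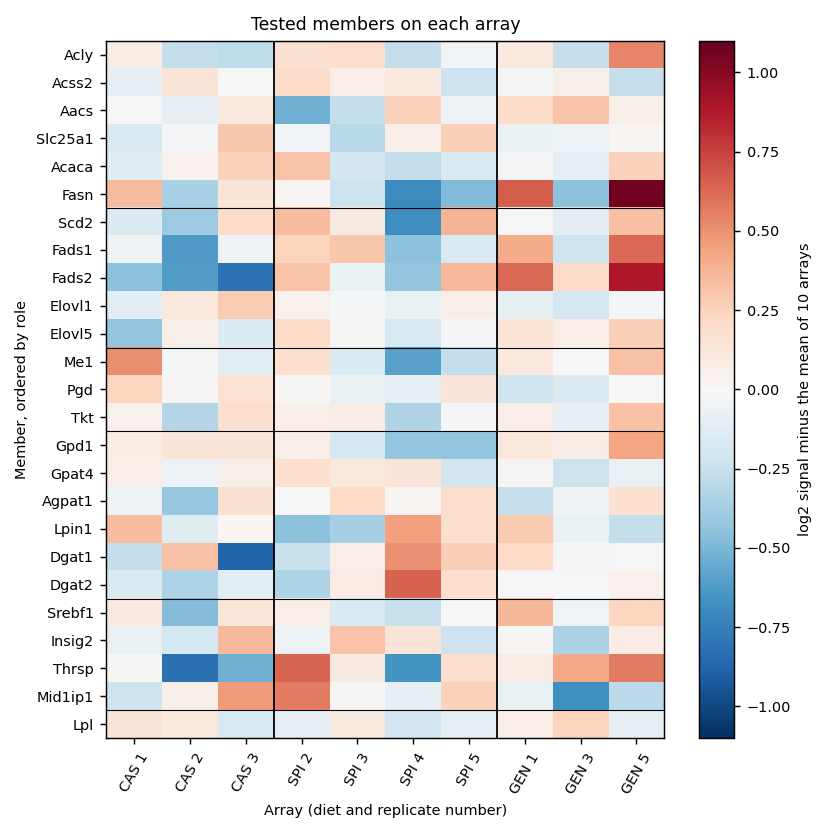
Log2 signal of each tested member on each array, minus that member's mean over the 10 arrays; colour runs from blue (lower) to red (higher), vertical lines divide the diets and horizontal lines the roles. Fasn and Fads2 are highest on GEN 5, and Dgat1 and Dgat2 are highest on SPI 4.

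Markers of the cell types in the gland also differed between arrays. The sums given here run over every gene of a list that was on the array, dim ones included. For the 10 luminal epithelial genes, of which 9 passed the filter, the sum was 11043 to 20466 on CAS, 7098 to 14085 on SPI and 17175 to 22675 on GEN. For 6 of 7 milk protein and secretory genes on the array, all above the filter, the sum was 27327 to 70973 on CAS, 23688 to 59881 on SPI and 71989 to 94838 on GEN. GEN thus lay above SPI in both lists and above CAS in the second. The adipocyte list, 7 of 11 genes on the array with 4 above the filter, summed to 14223 to 18258 on CAS, 15288 to 19261 on SPI and 16517 to 17187 on GEN. Most of that sum was Fabp4, and the genes above the filter did not share a direction. Cfd, the fat cell protease adipsin, had a log2 difference of -1.01 ± 0.45 for GEN against CAS (limma, unadjusted p = 0.0438, adjusted p = 0.825). For SPI against CAS the Cfd difference was -0.76 ± 0.42. Fabp4, Lipe and Cidea differed by 0.21, -0.37 and -0.07 for GEN against CAS. For SPI against CAS these genes differed by 0.26, 0.36 and -0.35, in the same order. The part of these levels in the members' differences was not tested.

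Other lists and the state of the RNA were also compared. Summed signals were 9013 to 10642 on CAS, 10179 to 13817 on SPI and 10319 to 13696 on GEN for basal epithelial genes (6 on the array, 5 above the filter). For macrophage genes (7, all above it) they were 4378 to 11248, 3191 to 7002 and 4408 to 7841, and for endothelial genes (4, all above it) 5753 to 7976, 6720.2 to 9510 and 6112 to 7605. Most of the basal sum was Acta2 and Mylk, which differed by 0.14 and 0.17 in log2 signal for SPI against GEN. Krt5, Krt14 and Lgals7 went the other way, by -0.82, -0.83 and -1.04. For GEN against CAS these 3 genes differed by 0.91, 0.74 and 1.30, and Acta2 and Mylk by 0.08 and 0.17. The 9 skeletal muscle genes, of which 4 passed the filter, summed to 7384 on CAS 1 and to between 1580 and 2531 on the other arrays, and no gene of the brown adipocyte list (4 on the array) passed the filter. The beta-actin ratio of 3′ to 5′ signal, a measure of RNA integrity, ran from 2.83 on GEN 5 to 7.77 on SPI 4. With it as a covariate, the difference for GEN against CAS was 1.07 for Fads2, 0.67 for Thrsp and 0.29 for Elovl5, and that of Fasn for SPI against GEN was -0.73. Median signals per array were 222.8 to 256.7, and correlations between arrays 0.925 to 0.950.

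**Figure D5:**
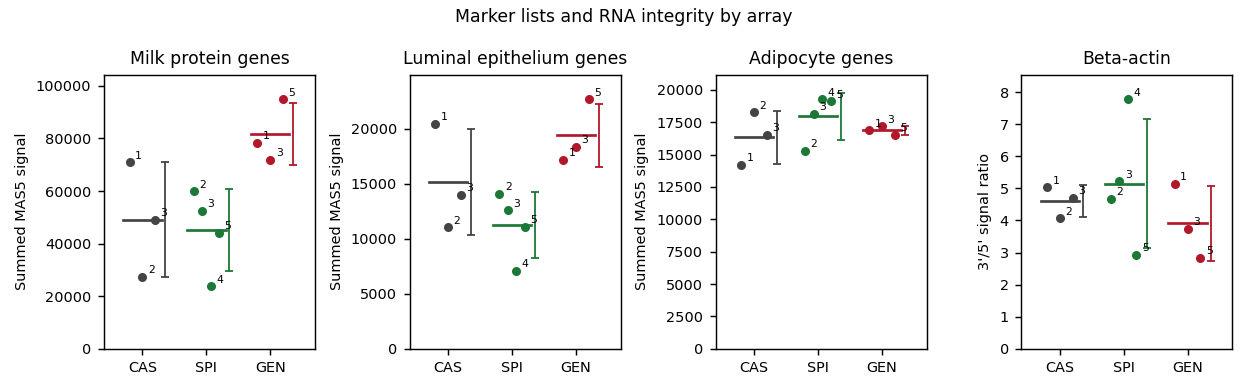
Summed MAS5 signal of the milk protein, luminal epithelial and adipocyte lists, and the beta-actin 3′/5′ signal ratio, on each array by diet; points are arrays labelled with their replicate number, lines are means and bars 1 SD (n = 3, 4 and 3). The GEN arrays lie at 71989 to 94838 for the milk protein genes, above all SPI arrays.

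Each of the 25 tested members was also set against 3 measures within diets, the mean log2 signals of the luminal and adipocyte lists and the log2 beta-actin ratio, as deviations from the diet mean over the 10 arrays. None of the 75 relations had an adjusted p under 0.05 by an exact permutation within diets (864 arrangements, two-sided). The smallest was 0.174 by Pearson's r and 0.260 by Spearman's rho. With 864 arrangements and 75 relations, no relation standing alone could reach an adjusted p under 0.05, however strong. The lack of such a value therefore does not show that a relation is absent. With the luminal list 19 members had a positive r and 6 a negative one, from -0.721 for Aacs to 0.961 for Thrsp. The same count was not made over all tested probe sets, so it cannot be read as particular to the members. Thrsp had rho of 0.939 (exact permutation p = 0.00231 for r and 0.00347 for rho, adjusted p = 0.174 and 0.260) and r of 0.898 without SPI 4 and CAS 2, the arrays farthest from the median of the luminal measure.

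Me1, Scd2 and Tkt followed in size of r with the luminal list. Me1 had r of 0.877 and rho of 0.855 (exact permutation p = 0.015 for each, adjusted p = 0.260 and 0.304), and r of 0.858 without those arrays. Scd2 had r of 0.838 and rho of 0.661 (exact permutation p = 0.0324 and 0.0891, adjusted p = 0.304 and 0.393), and its r was 0.498 without them. Tkt had r of 0.836 and rho of 0.733 (exact permutation p = 0.022 and 0.0382, adjusted p = 0.273 and 0.318), and r of 0.609 without them. Fads2 had r of 0.750 and rho of 0.636 (exact permutation p = 0.037 and 0.081, adjusted p = 0.309 and 0.393), and r of 0.703 without them. Fasn had r of 0.671 and rho of 0.758 (exact permutation p = 0.0174 and 0.022, adjusted p = 0.260 and 0.304), and r of 0.633 without them. The adipocyte mean weighs its 7 genes alike, Lep, Plin1 and Pck1 below the filter included. GEN 1 had the lowest such mean, 8.14, but the highest Fabp4 signal of the GEN arrays, 14538. Whether the mean follows fat cell content was not tested. With the adipocyte list r ran from -0.789 for Fasn to 0.463 for Aacs. Fasn had rho of -0.818 there (exact permutation p = 0.0509 for r and 0.0255 for rho, adjusted p = 0.342 and 0.304). Me1 had r of -0.723 and rho of -0.818 (exact permutation p = 0.015 and 0.00694, adjusted p = 0.260 for each). Fads2 had r of -0.624 and rho of -0.6 (exact permutation p = 0.0775 and 0.0625, adjusted p = 0.342 and 0.360). Without CAS 1 and GEN 1, the arrays farthest on that measure, r was -0.855 for Fasn, -0.782 for Me1 and -0.703 for Fads2. With the beta-actin ratio r ran from -0.683 for Pgd to 0.706 for Gpat4. Fads2 had r of -0.660 and rho of -0.624 there (exact permutation p = 0.134 and 0.137, adjusted p = 0.420 and 0.483). Its r was -0.285 without SPI 5 and SPI 4, the arrays farthest on the ratio. All these relations were chosen after the data were seen. Their p-values take the arrays as independent, which the labels do not settle.

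Other genes of the pathway were read from a further list of 60, of which 46 were on the array and 41 were tested. None passed an adjusted p of 0.05 in any comparison (limma). At an unadjusted p under 0.05 there were 0 between SPI and CAS, 2 between GEN and CAS (both higher on GEN) and 5 between SPI and GEN (4 lower and 1 higher on SPI). As shares of the list these are 0%, 4.88% and 12.2%, beside 4.82%, 5.89% and 7.95% of all tested probe sets. Their medians were -0.01, 0.01 and -0.01.

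The 2 with the smallest p in each comparison are named here. For SPI against GEN, Acsl1, which activates long-chain fatty acids, had an SPI mean of 285 ± 113 (SD, n = 4), a GEN mean of 583 ± 237 (SD, n = 3), a CAS mean of 331 ± 110 (SD, n = 3) and a difference of -1.04 ± 0.35 (limma, unadjusted p = 0.0113, adjusted p = 0.558). Cyb5r3, the reductase that passes electrons to desaturases, differed by 0.43 ± 0.14 (unadjusted p = 0.0108, adjusted p = 0.558), with every SPI array above every GEN array. For GEN against CAS, Mdh1, cytosolic malate dehydrogenase, differed by 0.46 ± 0.18 (unadjusted p = 0.0219) and Dbi, an acyl-CoA carrier, by 0.35 ± 0.16 (unadjusted p = 0.0471). For SPI against CAS, Lpin3, a relative of Lpin1, differed by -0.37 ± 0.19 (unadjusted p = 0.0665) and Cyb5a, the electron donor of desaturases, by 0.31 ± 0.21 (unadjusted p = 0.163).

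For the members given on every array, the most similar of 7119 tested genes by Pearson r over the 10 arrays were as follows, as a description in which the highest of many correlations were taken. Fads2 was most like Tfrc (0.935), Syncrip (0.934) and Apod (0.933). Thrsp was most like Cct6a (0.920), Lrba (0.911) and Hsp90ab1 (0.911). No member was among the leading genes of either. Fasn was most like Prkci (0.944), Slc45a3 (0.942) and Lcn2 (0.942), and Elovl5 like Nfib (0.949), LOC102546572 (0.900) and Creb1 (0.898). Gpd1 was most like Plet1 (0.952), Mid1ip1 like Mcm2 (0.937), Acaca like Gga2 (0.931), Pgd like Slc39a7 (0.912), Dgat1 like Prdm1 (0.964), Dgat2 like LOC100911177 (0.893) and Lpl like Fnip1 (0.906).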

How the data were processed

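RNA from pools of 2 animals was measured on 10 arrays (CAS 3, SPI 4, GEN 3). The authors deposited 1 MAS5 signal intensity per probe set and array, per the submitters' processing notes; values are linear, and the trimmed mean of each array was 500.1. Detection calls were not used here. Intensities below 1 were set to 1 (0.0637% of values), log2 was taken, 57 control probe sets were left out, and the lowest 40% of the remaining 15866 by mean log2 signal were not tested. Gene symbols came from the platform annotation: 12783 probe sets had 1 symbol, 312 several and 2771 none.

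All 10 arrays entered 1 limma fit (version 3.58.1, R 4.3.3; diet as the only term; lmFit, then eBayes with a trend on intensity), with Benjamini-Hochberg adjustment per comparison and a threshold of 0.05. The fit was tested on simulated data in which arrays were independent and the planted difference exceeded that of any tested member. Planted differences of the size reported here were not covered. Values on every array were given for members with an unadjusted p under 0.05 or without overlap in any comparison, and for Acaca, Fasn, Scd, Dgat1, Dgat2 and Lpl whatever their values. Members and lists were chosen with earlier results of these data known. Alternatives were 18: normalization, filter, floor, variance model, the arrays in the fit, a replicate block, an RNA integrity covariate and leaving out each array; other probe sets of a gene were also read. Several alternatives cannot change a difference and act only on its p-value. These are the filter, the variance model, a fit of only the diets compared, and leaving out an array of the diet outside the comparison. The number of arrays limits the precision.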

Additional observations from a re-analysis of the deposited data

Results flagged for a closer look

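On the SPI diet the mean log2 signal of the brown adipocyte genes on SPI 4 was 4.73, and the other 3 SPI arrays lay between 3.52 and 3.61. The gap to the nearest array was 0.925 of the whole range of the 4 arrays, above Dixon's critical value at the 95% level. All genes of this list were below the brightness filter. The same check was made on 34 sets of values of 4 arrays, and chance alone exceeds it in about 1 of 20.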

How the results depend on the processing

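No member passed an adjusted p of 0.05 (limma) under any of the 18 alternatives; the smallest adjusted p among members over them was 0.403 between SPI and CAS, 0.208 between GEN and CAS, and 0.402 between SPI and GEN. Of 25 members, 15, 15 and 18 kept the sign of their difference under all 18, several of which cannot change a difference. Members at an unadjusted p under 0.05 were 2 for SPI against CAS, and 1 under quantile normalization and 1 with only the arrays of the 2 diets compared; they ranged from 0 (without CAS 3) to 5 (without SPI 2), and were 1 without SPI 3, SPI 5, GEN 1 or GEN 3. They were 3 for GEN against CAS, from 1 (without GEN 5) to 6 (without GEN 3). They were 4 for SPI against GEN, from 1 (without GEN 5) to 4, with 2 without GEN 1. Probe sets called ranged from 0 to 2 between SPI and CAS (2 without SPI 2), from 0 to 1 between GEN and CAS (1 without CAS 1) and from 0 to 1 between SPI and GEN (1 without CAS 2, CAS 3, SPI 2 or GEN 5), which was 2 with only the arrays of the 2 diets compared. The members' median for SPI against GEN, -0.12, ranged from -0.15 to -0.02 with an array left out. Same-numbered arrays of different diets did not deviate together: their deviations correlated between -0.18 and 0.16 in 6 pairs, so the numbers were not taken as a pairing. With the replicate block, 0 members had an unadjusted p under 0.05 for SPI against GEN, the median was -0.0030, and the sign turned for 4, 3 and 6 of the 25 members in the 3 comparisons, among them Lpl on SPI against CAS (0.010), Acaca on GEN against CAS (0.041) and Dgat1 on SPI against GEN (-0.071). Quantile normalization turned Acaca (0.010) and Lpl (-0.012) on GEN against CAS. With an array left out, the difference ranged from -0.11 to 0.087 for Acaca and from -0.047 to 0.13 for Lpl on GEN against CAS, and from -0.039 to 0.21 for Dgat1 and from -0.034 to 0.29 for Dgat2 on SPI against GEN. The dim second probe sets gave 0.21 for Acaca on GEN against CAS and 0.030 for Gpd1 on SPI against GEN. The cause was not tested for any of these. Low signals limit what the 7 untested members can show.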
